A study of Mus musculus with 721 samples.

Results

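Ttr, Afp, Trf, Spink3, Ang, Clic6 and Fgb were followed through mouse embryos from the blastocyst to the start of gastrulation. They were chosen by name as products of the visceral endoderm (VE) that are mostly found in serum, and all 7 have a row among the 24483 genes of the count table. Of the 7, 6 encode secreted proteins. Clic6 belongs to the chloride intracellular channel family, whose members stay in or on the cell, so it is counted with the others here without being a serum protein.

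The visceral endoderm is the absorptive, secretory epithelium that wraps the early postimplantation embryo. It descends from the primitive endoderm (PrE), which separates from the epiblast in the late blastocyst, and before a liver exists it makes many of the proteins that the liver later releases into plasma. Ttr (transthyretin) carries thyroxine and, together with Rbp4, retinol. Afp (alpha-fetoprotein) is the fetal member of the albumin family and a classical marker of VE. Trf (transferrin) carries iron. Spink3 is a small secreted trypsin inhibitor, the mouse counterpart of human SPINK1. Ang (angiogenin) is a secreted ribonuclease, and Fgb is the beta chain of fibrinogen, which is built with the products of Fga and Fgg.

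The data are read counts from 721 wild-type C57Bl/6Babr cells of 36 embryos as numbered in the titles, with 99 cells from embryonic day 3.5 (E3.5), 267 from E5.5, 250 from E6.5 and the remainder from E4.5. Of the E6.5 cells, 82 carry E6.75 in their titles. The 4 embryos of E6.5 and E6.75 that have no plate name in their titles were taken as embryos of their own, an assumption on which every n at E6.5 rests. The paper counts fewer embryos over all stages than are counted here, so some of these may not be separate animals. Total counts ran from 66896 to 3792936 per cell, with a median of 692863. Immunosurgery had stripped the outer trophectoderm from the blastocysts (E3.5, E4.5), the VE was drawn off and disaggregated on its own at E5.5, and at E6.5 the embryonic portion was dissociated once extraembryonic tissue had been taken off, with no separate handling of VE described. A double was marked in 9, 38, 67 and 14 wells of the 4 stages.

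Cells were placed in classes by clustering without the 7 genes, and a cell was kept where its own marker genes gave the same class as its cluster. This left 77 PrE-like and 26 epiblast-like cells at E4.5, 7 VE-like and 259 epiblast-like cells at E5.5, and 41 VE-like and 20 streak-like cells at E6.5. Epiblast-like cells were left in all 13 embryos at E6.5, with 83 cells in the sums of embryos that have a plate name in their titles and 76 in those of the others. The classes rest on marker genes, so the levels of these describe them and do not test them. Of 18 endoderm markers the summed level was 14640 to 22905 counts per 1000000 counts (CPM) in PrE-like and 7016 to 12380 CPM in E6.5 VE-like cells, against 525 to 742 CPM and 1168 to 1974 CPM in the epiblast-like cells of those stages. All 18 were detected in both endoderm classes. The embryo was the replicate, and a sum for a class and an embryo needed 3 or more cells, or 1 in the comparison by Cer1. Of markers for other cell types, 3 of 8 blood, 6 of 6 trophoblast and 5 of 6 decidual genes were detected in the E6.5 VE-like sums. Blood markers summed to 3.15 to 82.7 CPM there, except 1062 CPM in embryo 6 of plate P2, trophoblast markers to at most 151.75 CPM and decidual markers to at most 30.9 CPM. Markers of parietal endoderm, the sister lineage of VE, summed to 3806 to 7019 CPM in PrE-like and 391.9 to 1351 CPM in VE-like cells, and their part in the results was not tested. Of these, Sparc is also among the 18 endoderm markers, so the sums partly describe the classes, and Thbd had no count in the PrE-like sums.

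Afp lies next to Alb on chromosome 5, where it spans chr5:90490737-90508907 on the plus strand of GRCm38, 14134 bases beyond the end of Alb. Fgb, at chr3:83040141-83049863 on the minus strand, stands in the fibrinogen cluster 6513 bases from Fga. Ang, at chr14:51091150-51102009 on the plus strand, shares 219 of its 1202 exon bases with Rnase4, so reads from their common part cannot be assigned to either gene. Trf is at chr9:103204001-103230444 on the minus strand and Clic6 at chr16:92485736-92541243 on the plus strand. The promoter table of RefSeq (GRCm38.p6) held 3 of the 7 genes, Afp, Ang and Fgb. The 250 bases before the RefSeq start of each are shown because the 3 genes were all high in the VE at E6.5. For Afp and Ang this start (90490714 and 51091077) is the one in the count table and lies before the GENCODE start given above, and that of Ang is also the start of Rnase4. Capitals mark the letters TTGCNNAA, a C/EBP-type site, searched on both strands as were the other motifs.
Afp, chr5:90490464-90490713, plus strand: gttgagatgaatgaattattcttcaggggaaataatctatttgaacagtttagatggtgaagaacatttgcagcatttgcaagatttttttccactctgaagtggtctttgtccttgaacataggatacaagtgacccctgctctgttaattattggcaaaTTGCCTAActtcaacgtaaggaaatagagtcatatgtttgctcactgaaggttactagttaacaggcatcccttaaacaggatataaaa
Fgb, chr3:83049864-83050113, minus strand: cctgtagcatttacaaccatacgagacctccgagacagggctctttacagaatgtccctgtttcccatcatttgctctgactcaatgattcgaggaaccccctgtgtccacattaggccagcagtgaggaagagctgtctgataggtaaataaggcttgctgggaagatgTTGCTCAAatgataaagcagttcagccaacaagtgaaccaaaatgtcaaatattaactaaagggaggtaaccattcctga
Ang, chr14:51090827-51091076, plus strand: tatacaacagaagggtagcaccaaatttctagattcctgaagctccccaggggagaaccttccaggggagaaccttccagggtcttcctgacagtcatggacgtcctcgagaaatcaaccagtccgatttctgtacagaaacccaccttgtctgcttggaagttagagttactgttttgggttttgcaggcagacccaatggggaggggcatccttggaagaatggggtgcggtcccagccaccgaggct
It occurs once in the Afp window, at position -89 from the start, and once in the Fgb window, at position -80, and it does not occur in the Ang window. Among 32851 promoter windows of this length, 9.56% hold TTGCNNAA. An HNF4 core, CAAAGT, is held by 12.6% of these windows. For factors of the GATA family AGATAA was searched, which 9.99% hold, and for forkhead factors TGTTTAC, which 3.17% hold. None of these exact runs was found in the windows of the 3 genes. Other GATA-type runs such as TGATAA were not searched, and the Fgb window holds TGATAA. A match is a run of letters only, and binding was not measured.

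In the inner cell mass at E3.5 the group was silent at this depth. Ttr, Afp, Trf, Ang, Clic6 and Fgb had no count in any of 99 cells, which allows a share of up to 3.03% of cells with a count, and Spink3 had counts in 2 cells. Summed per embryo, Spink3 reached 0.47 CPM at most over the 9 embryos.

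At E4.5 the PrE-like cells had switched on Ttr, Spink3 and Clic6, while Trf was on in the epiblast-like cells instead. Spink3 led the group in PrE-like cells, at 153.1, 400.5, 541, 314 and 1046 CPM in embryos 1 to 5 against 0.79, 0, 15.1, 0.84 and 29.7 CPM in the epiblast-like cells of the same embryos. It had a count in 75 of 77 PrE-like and 8 of 26 epiblast-like cells. Every PrE-like sum was above every epiblast-like sum, and the log2 fold change was 5.67 ± 0.97 (SE, adjusted p = 0.00115, edgeR quasi-likelihood test, n = 5 and 5 embryos).

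Both Spink3 (chr18:43728082-43737557, minus strand) and Ttr (chr18:20665280-20674321, plus strand) lie on the same chromosome, far apart. Ttr followed at a lower level. Its PrE-like sums were 84.4, 35.5, 114.1, 66.1 and 66.4 CPM, and its epiblast-like sums were 0 in 4 embryos and 2.68 CPM in embryo 4. The groups did not overlap, with a log2 fold change of 6.60 ± 1.01 (adjusted p = 4.85e-04). Only 53 of the 77 PrE-like cells (68.8%, exact 95% interval up to 78.9%) had a count of Ttr, and 52 of these 53 also had Spink3.

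Clic6 was patchier still, with a count in 42 of 77 PrE-like cells. Its sums were 32.02, 23.5, 5.99, 16.8 and 104.2 CPM, all above the epiblast-like sums, which were 0 in all 5 embryos. The rise was at least 243-fold against the floor of 3 counts over the epiblast-like group (adjusted p = 9.13e-04), and at least 79.5-fold without embryo 5, which held 1862 of the 2734 counts. Counts of Clic6 were found beside Ttr in 30 PrE-like cells and without Ttr in 12. The cell medians were 4.97 CPM for Clic6 and 43.2 CPM for Ttr. At such levels a missing count may be a missed transcript, so the counts cannot show whether either gene marks a subset of the other's cells.

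Trf ran the other way. Epiblast-like sums were 104.6, 72.6, 2.11, 77.4 and 39.1 CPM, and PrE-like sums were 0 in 4 embryos and 1.91 CPM in embryo 4. The values did not overlap, although embryo 3 was close to the PrE-like level, and the log2 fold change of PrE-like over epiblast-like cells was -6.84 ± 1.37 (adjusted p = 0.00313). With single wells alone, or without embryo 4, Trf did not pass the low-count filter and was not tested. Trf was counted in 13 of 26 epiblast-like cells and in 2 of 77 PrE-like cells. Thinned to 300000 counts a cell, the shares were 12 of 25 and 1 of 74. Of the 13 Trf-positive epiblast-like cells 11 had no Spink3, and the 2 Trf-positive PrE-like cells both had Spink3. Single wells alone gave 8 of 19 epiblast-like and 2 of 47 PrE-like cells with Trf.

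**Figure D1:**
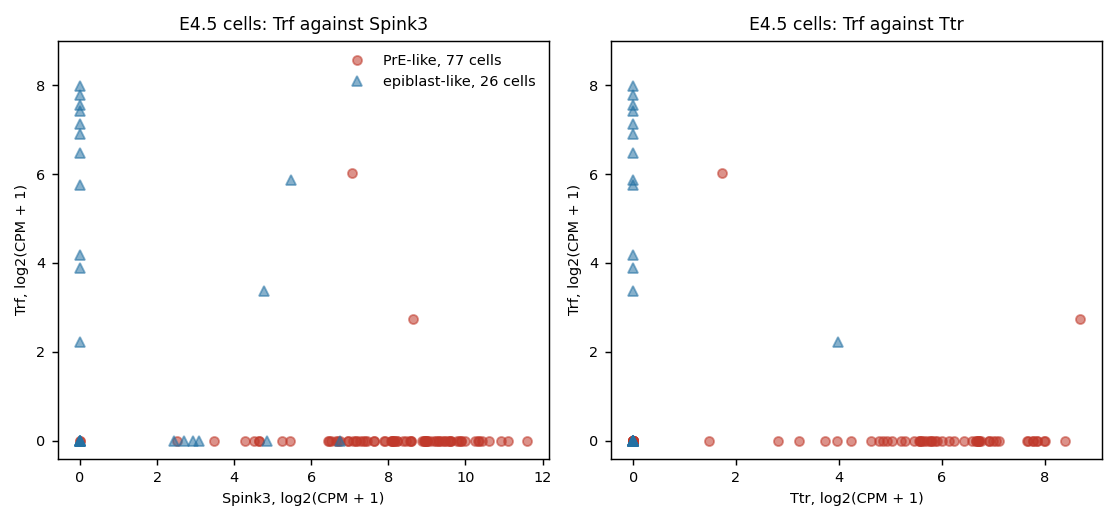
Trf against Spink3 (left) and Ttr (right) in single E4.5 cells, both axes in log2(CPM + 1), with 77 PrE-like cells as circles and 26 epiblast-like cells as triangles. Trf-positive cells lie mostly on the left edge, where Spink3 and Ttr are 0, and only 2 circles rise off the bottom.

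The remaining 3 genes were at the edge of detection at E4.5 and did not pass the low-count filter of this comparison. Ang was counted in 11 and Fgb in 10 of 77 PrE-like cells, with sums of at most 7.05 and 10.98 CPM. Afp was all but absent, with 2 PrE-like cells and 1 epiblast-like cell carrying it. Thus 3 of 7 members were higher in PrE-like cells and 1 was lower, where 5.94% and 3.63% of 9952 tested genes were called in those directions. A call here requires an adjusted p no higher than 0.05 together with a log2 change beyond 2. The same 4 genes were those whose groups did not overlap, as did 10.4% (PrE-like above) and 6.7% (PrE-like below) of all tested genes.

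Trf was not alone on the epiblast side. Of 76 further plasma protein genes in the table, 15 were tested at E4.5, where 4 were higher and 3 lower in PrE-like cells, with a median log2 change of -0.15 against 0.08 over all tested genes. The 3 lower genes were Apoa2, an apolipoprotein, at 2.29 ± 3.07 against 29.9 ± 11.2 CPM (mean ± SD, n = 5 and 5), Gc, the vitamin D carrier, at 2.10 ± 1.05 against 25.5 ± 15.9 CPM, and Pzp, a protease inhibitor of the macroglobulin family, at 13.3 ± 9.75 against 64.2 ± 30.3 CPM. The largest rises among called genes were those of Pros1 (protein S, an anticoagulant cofactor; log2 change 5.75), Serping1 (the C1 inhibitor, 4.80) and Gpx3 (the plasma glutathione peroxidase, 4.14). Of 22 liver and endoderm regulators 13 were tested, 8 were higher and 1 was lower. Gata4, Gata6, Sox17, Sox7, Foxa2 and Hnf4a on this list are also among the endoderm markers that named the classes. Any rise of these describes the classes and is no separate result. Gata4 (log2 change 9.55) and Foxa3 (at least 60.1-fold, or 37.8-fold without embryo 4) were among the largest rises, and only Nr5a2 was lower, where its level fell by 6.47 on the log2 scale.

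Measured against the inner cell mass of the day before, 6 of 7 members were called higher in PrE-like cells, where 7.6% of 11164 tested genes were called higher. Afp was the exception (adjusted p = 0.0813, but 0.0423 with no filter on low counts and 0.0263 without embryo 4). The rises of Ttr and Clic6 were at least 1227-fold and 737-fold, the latter 323-fold without embryo 5 and 1154-fold without embryo 4, and Spink3 rose by 11.63 ± 0.55 on the log2 scale. Ang (at least 57.1-fold, or 31.9-fold without embryo 5 and 99.3-fold without embryo 4) and Fgb (at least 50.4-fold) rose to the few CPM given above. The call for Trf (adjusted p = 0.0209) rests on embryo 4 alone, and without that embryo no Trf count was left to test. The groups of Ttr, Spink3 and Clic6 did not overlap, as did 7.82% of tested genes. The fit also held the E6.5 VE-like sums, and through these Afp, Trf, Ang and Fgb could pass its low-count filter. At E3.5 every member but Spink3 was at 0, so for those a rise was the only direction open. Plates differ between E3.5 and E4.5 too, which cannot be told apart from the stage. In epiblast-like cells over the same interval, Trf rose at least 1040-fold (adjusted p = 1.70e-06), and Afp and Spink3 were called higher too. Here 12.6% of 13077 tested genes were called higher. This fit also held the E5.5 and E6.5 epiblast-like sums, and through these Afp and Spink3 could pass its low-count filter. The Afp call came from 1 cell of embryo 5, and the Spink3 sums of the 2 stages overlapped.

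**Figure D2:**
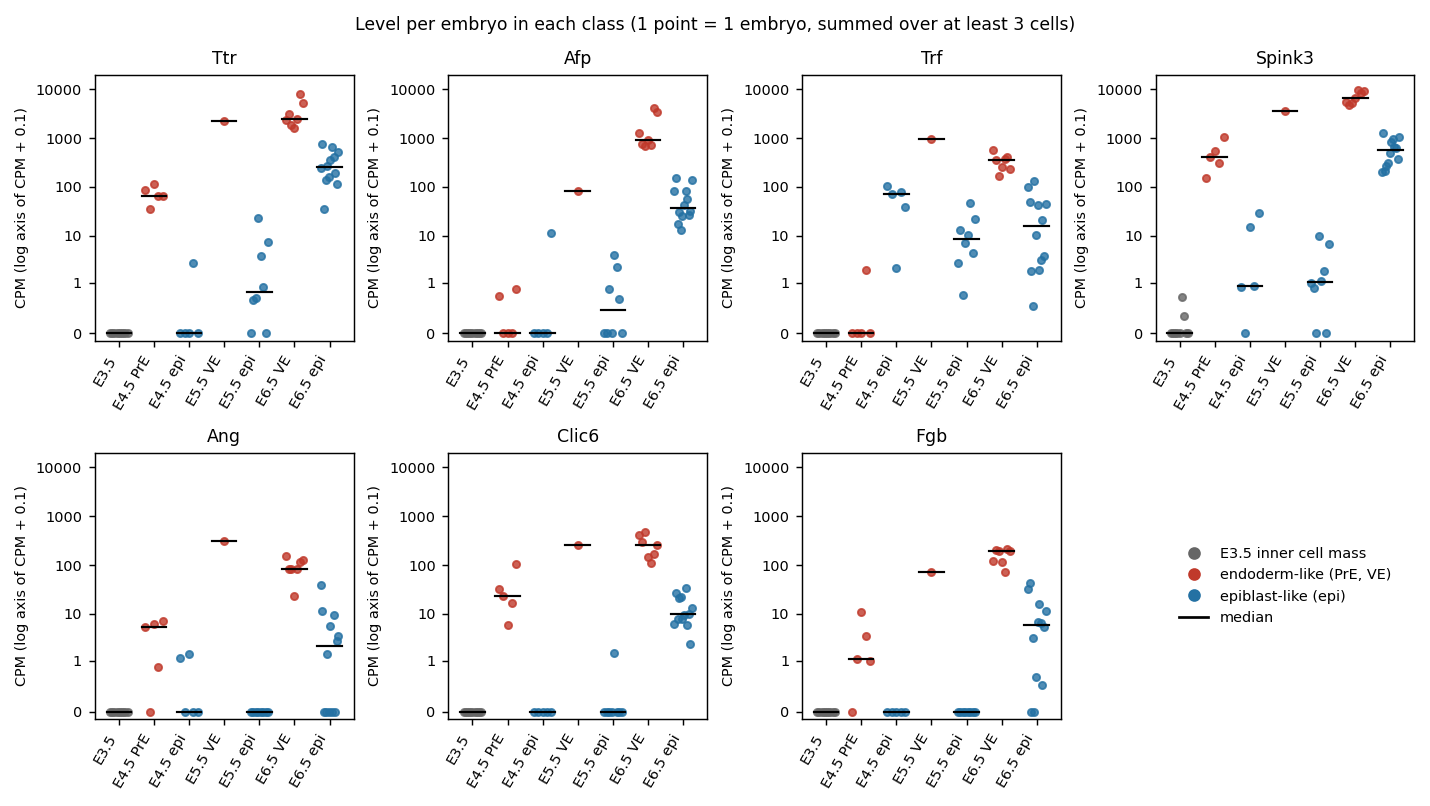
Level of each gene per embryo in 7 classes, in CPM on a log axis of CPM + 0.1. Each point is 1 embryo summed over at least 3 cells, and the bar is the median. Every E6.5 VE point lies above every E4.5 PrE point of its panel, the single E5.5 VE point of Trf and of Ang lies above the E6.5 VE points, Trf alone has its E4.5 level in the blue epiblast points, and the blue E6.5 points lie between the 2 extremes.

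At E5.5 the VE-like class held 7 cells from 3 embryos, 5 of them from the separated VE of embryo 7, so no comparison was tested. All 7 members were present. Ttr was at 1016, 1031, 2046, 2271, 2891, 3095 and 4170 CPM in the 7 cells, and Spink3 at 1033, 1724, 1960, 2632, 3233, 3620 and 6189 CPM. Trf was now in every VE-like cell, at 109.7, 159.95, 793, 957, 1019, 1310 and 2393 CPM, where 2 of 77 PrE-like cells had carried it a day earlier. Ang was likewise in all 7 cells, from 25.01 to 616 CPM.

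Afp and Fgb lagged behind in these cells. Afp had no count in 3 of the 7, 4.68 CPM in one, and 153.7, 183.2 and 204 CPM in the other 3. Fgb had no count in 3 cells, 0.69 CPM in one, and 50, 215 and 405 CPM in the others. Clic6 was absent from 1 cell and at 102.55 to 489 CPM in the other 6. Summed over the 5 VE cells of embryo 7, the levels were 3650 CPM for Spink3 (exact Poisson 95% interval 3604 to 3696, counting error only), 2265 for Ttr, 976 for Trf (953 to 1001), 315 for Ang, 254 for Clic6, 80.4 for Afp (73.7 to 87.5) and 72.4 for Fgb. Rbp4, the partner of Ttr in retinol transport, had no count in any E4.5 cell of either class and stood at 399 CPM here. In the epiblast-like cells of the same embryo Ttr, Afp, Ang, Clic6 and Fgb were at 0.

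By E6.5 all 7 genes were high in the VE-like cells, and 29 of the 41 cells carried counts of all 7. The E5.5 sums of Trf (976 CPM) and Ang (315 CPM) were above all 7 sums of E6.5, in 1 embryo and with no test. Ttr ran from 1594 to 7952 CPM over 7 embryos (median 2501), Spink3 from 4739 to 9442 (median 6620) and Afp from 694 to 4156 (median 911). Trf ran from 170 to 577 CPM (median 363), Clic6 from 112.7 to 486 (median 256), Fgb from 71.7 to 209 (median 194) and Ang from 23.03 to 151.03 (median 84.8). Scaled by exon length, which allows genes to be compared, Spink3 came first at 9553 ± 2654 CPM per kb (mean ± SD, n = 7), then Ttr at 2960 ± 1931 and Afp at 504 ± 429. Below these were Trf at 102.3, Ang at 79.6, Clic6 at 68.9 and Fgb at 41.7 CPM per kb, with ranges of 51.3 to 173.8, 19.2 to 125.65, 28.8 to 124.2 and 18.8 to 54.9. The Fgb row of the count table starts 2106 bases inside the annotated gene, and on the 1704 exon bases from there on Fgb was at 93.3 CPM per kb (42.1 to 122.85), so these 4 genes have no order here. Spink3 and Ttr overlapped as well, through the highest Ttr value of 6705 and the lowest Spink3 value of 6501 CPM per kb. The ranges of Ttr and Afp did not overlap (lowest 1344 against highest 1234 CPM per kb), and neither did those of Afp and Trf.

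Compared with the epiblast-like cells of the same stage, all 7 members were higher in VE-like cells, where 4.75% of 10267 tested genes were called higher. The log2 fold changes were 4.86 ± 0.49 for Afp (adjusted p = 3.21e-07), 4.25 ± 0.44 for Clic6 (5.51e-07), 4.04 ± 1.02 for Ang (0.0117), 3.92 ± 0.84 for Fgb (0.00355), 3.55 ± 0.33 for Spink3 (1.11e-07), 3.45 ± 0.43 for Ttr (8.59e-06) and 3.39 ± 0.73 for Trf (0.00363). Their median was 3.92, against -0.10 over all tested genes. The groups of 6 members did not overlap, where 1.26% of genes had VE-like above epiblast-like, and Ang overlapped because epiblast-like cells of embryo 2 of plate P1 reached 39.96 CPM. With the embryo as a block, on the 7 embryos that hold both classes, 515 genes were called in place of 858, and all 7 members remained called higher. Among the 8 embryos with a plate name alone, Trf (adjusted p = 0.0590), Ang (0.162) and Fgb (0.0866) lost the call with log2 changes of 3.11, 3.62 and 3.48, and Ang lost it also without the E6.75 cells (0.0907).

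Partners of the 7 genes were unequal. Fgg was higher in VE-like cells, at 36.5 ± 46.03 against 1.80 ± 4.44 CPM (log2 change 4.41 ± 1.32, adjusted p = 0.0330), but was at 0 in embryo 2 of plate P1 and 0.62 CPM in embryo 6 of plate P2. Fga was at 4.68 ± 5.39 CPM and was not tested. Per exon length, Fgb at 41.7 CPM per kb stood above Fgg at 17.4 ± 21.99 and Fga at 1.56 ± 1.79, and the ranges of Fgb and Fgg overlapped. Alb, the neighbour of Afp, had no count in any VE-like sum. Rbp4 was at 338 ± 265 against 21.2 ± 17.3 CPM (adjusted p = 6.58e-05). Rnase4, which overlaps Ang, was at 256 ± 130.5 against 5.37 ± 6.26 CPM (adjusted p = 9.62e-05), and Ang and Rnase4 had a Spearman correlation of 0.55 over the 41 VE-like cells, in which shared reads may enter both.

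The wider plasma list moved with the members at this stage. Of 23 tested genes 17 were higher and none was lower in VE-like cells, with a median log2 change of 3.60, and an unadjusted p under 0.05 was reached by 19. Cfi, the complement factor I protease, had the largest rise (45.9 against 0.65 CPM in the means), followed by Rnase4 and Apob, the structural apolipoprotein of large lipoproteins, at 3661 ± 2588 against 84.3 ± 70.8 CPM. Of 16 tested regulators 9 were higher and none was lower, led by Gata6 (log2 change 5.67), Gata4 (5.35) and Nr2f2 (4.52). Gata6 and Gata4 are among the regulators that also served as endoderm markers, so their rises describe the classes.

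Between E4.5 PrE-like and E6.5 VE-like cells every member rose, where 2.71% of 11164 tested genes were called higher, and no member's groups overlapped (2.46% of tested genes). Afp moved most, from at most 0.73 CPM to at least 694 CPM (log2 change 12.56 ± 1.05, adjusted p = 5.90e-07), and Trf next, from at most 1.91 to at least 170 CPM (9.36 ± 1.13, 5.08e-05). Fgb rose by 5.67 ± 0.997, Ttr by 5.64 ± 0.46, Ang by 4.71 ± 1.03, Spink3 by 3.90 ± 0.46 and Clic6 by 2.95 ± 0.65 on the log2 scale, with adjusted p from 5.54e-07 for Ttr to 0.00908 for Clic6. These 2 groups also differ in dissection and plates, which cannot be told apart from the stage. Afp, Trf, Ang and Fgb could pass the low-count filter of this fit through their high E6.5 sums. The plasma list was split, with 13 of 31 tested genes higher and 4 lower. Rbp4 (at least 6232-fold, or 3197-fold without E4.5 embryo 4), Apoa1 (3968 ± 1867 against 1.41 ± 1.03 CPM) and Fgg (at least 689-fold, or 353-fold without that embryo and 371-fold without E6.75 embryo 1) had the largest rises. Pzp (at least 112.2-fold lower, or 179.4-fold without E4.5 embryo 4), Ahsg (fetuin-A, at least 78.9-fold lower) and Fetub (fetuin-B, at least 40.9-fold lower) were at 0 in all 7 VE-like sums. Of 18 tested regulators 3 were higher, Foxa1, Nr2f2 and Maf, and 2 were lower, Sox7 and Gata6.

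The difference between endoderm and epiblast changed with stage for 3 members. In a fit of both stages, an analysis added after the data were seen, the endoderm-over-epiblast log2 difference was larger at E6.5 than at E4.5 by 10.15 ± 1.63 for Trf (adjusted p = 3.30e-04) and by 8.04 ± 1.32 for Afp (4.39e-04), and smaller by 6.89 for Clic6 (0.0190), where 1.07% of 12071 tested genes were called larger and 1.93% smaller. For Trf the sign itself turned, from lower in PrE-like cells to higher in VE-like cells. The Afp value rests on 1 E4.5 epiblast-like cell of embryo 5 and fell to 2.34 (0.997) without that embryo and 2.18 (0.990) with single wells. The Clic6 value was fitted against epiblast-like sums of 0 at E4.5, lost the call in 5 of its alternatives, and is no bound. Ttr (-3.00, 0.0720), Spink3 (-2.11, 0.175), Ang and Fgb missed the threshold.

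VE-like cells at E6.5 were divided by Cer1, a secreted antagonist made by the anterior visceral endoderm that helps to pattern the epiblast. A cell counted as with Cer1 from 10 CPM, and sums of 1 cell were kept in this comparison. There were 22 such cells in 9 embryos, from 27.8 to 2122 CPM, and 19 without in 8 embryos, of which 16 had no count and the others at most 7.68 CPM. The 2 kinds were unevenly spread over the plates, with 19 of 29 cells of plate-named embryos but 3 of 12 cells of the others carrying Cer1.

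None of the 7 members differed between cells with and without Cer1 by the test. The only gene called among 7360 (0.0136%) was Cer1 itself, and no member reached an unadjusted p under 0.05. DESeq2 called 3 genes, none of them a member. Ttr ran from 227 to 7135 CPM with Cer1 (median 2501) and from 1244 to 8588 without (median 3589), with a log2 difference of -0.42 ± 0.46. Its range of 2 SE either side, -1.34 to 0.50, leaves room for a change of either sign. Afp ran from 0 to 3703 CPM with and 774 to 4966 CPM without Cer1 (difference -0.72 ± 0.69), and Fgb from 0 to 213 with and 120 to 268 without (-0.75 ± 0.60). The values of 0 for Afp and Fgb came from 1 cell, the only one with Cer1 in embryo 6 of plate P2. For Ang (-0.08 ± 0.50), Clic6 (-0.08 ± 0.43) and Trf (0.12 ± 0.53) the 2 means were close beside their spread.

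Spink3 had the narrowest error. It ran from 5702 to 9731 CPM with Cer1 (median 7943) and from 2588 to 8911 without (median 5888), a log2 difference of 0.39 ± 0.19 (unadjusted p = 0.0540, adjusted p = 0.999) whose range of 2 SE either side, 0.0063 to 0.76, was the one among the members that left out 0. It was the higher with Cer1 in 5 of the 5 embryos that held both kinds. Of these embryos, all but embryo 5 of plate P2 had only 1 cell of 1 of the kinds. Within plate-named embryos its means were 6979 ± 1440 (SD, n = 6) and 4803 ± 1465 CPM (n = 5), and within the others 9239 ± 621 and 7914 ± 1050 CPM (n = 3 and 3). Afp, Ttr and Fgb were each higher with Cer1 in 1 of the 5 embryos, and the paired ranges overlapped throughout. Within plate-named embryos Fgb was 83.9 ± 57.6 with and 206 ± 51.1 CPM without Cer1, and within the other embryos 190.7 ± 21.03 and 177 ± 48.8 CPM.

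**Figure D3:**
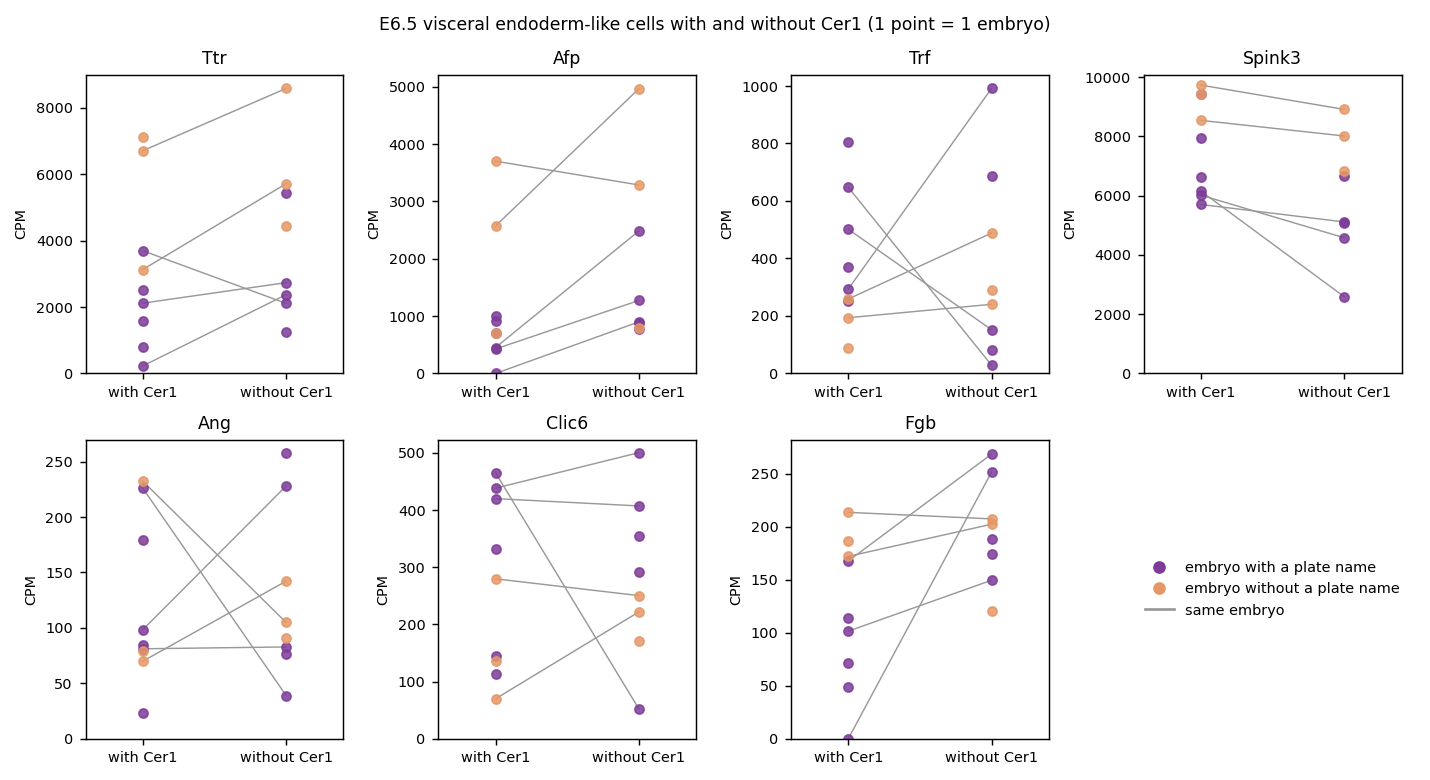
Level of each gene in CPM in E6.5 VE-like cells with and without Cer1, 1 point for each embryo (9 with, 8 without), coloured by whether the labels give a plate name, with lines joining the 5 embryos that hold both. The 2 columns overlap in every panel, and all 5 Spink3 lines fall from left to right. A point can rest on 1 cell.

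Plate names went with some levels more than Cer1 did. Over all 12 embryos with at least 1 VE-like cell, Ttr was at 4442 to 7952 CPM in the 4 embryos without a plate name (mean 6185 ± 1635) and 809 to 5451 CPM in the 8 with one (2365 ± 1441). Afp was at 2258 ± 1768 against 876 ± 195 CPM. The titles of 2 of these 4 embryos give E6.75, so plate, titled age and collection cannot be told apart, and no test was made. Over the 41 VE-like cells the members were only loosely ordered together. The closest pairs were Ttr with Afp (Spearman 0.64), Trf with Ang (0.60) and Afp with Ang (0.46), and the other 18 pairs ran from -0.18 to 0.41. These cells share embryos and plates.

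Epiblast-like cells carried the same transcripts unevenly. At E5.5, 193 of 259 epiblast-like cells had no count of any member. Trf was the most frequent, in 46 cells (17.8%, exact 95% interval up to 22.97%), and its sums over 8 embryos ran from 0.51 to 47.4 CPM (median 8.51). Ttr had sums of 0 to 22.6 CPM and Spink3 of 0 to 9.78 CPM, and Ang and Fgb had no count in any cell. Between E4.5 and E5.5 only Ang was called, as lower, going from 0.52 to 0 CPM in the means, beside 2.75% of 13077 tested genes. This call rests on 7 counts at E4.5 and was lost in 5 alternatives, with DESeq2 among them (adjusted p = 0.116). The fit also held the E6.5 epiblast-like sums, and through these Ang could pass its low-count filter. The drop of Trf from 59.2 ± 39.5 to 13.3 ± 15.3 CPM had an adjusted p of 0.236 (n = 5 and 8).

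At E6.5 Spink3 was counted in 99.4% of epiblast-like cells and Ttr in 90.1%, against 8.11% and 5.41% (21 and 14 of 259 cells) at E5.5. Thinned to 300000 counts the shares were 98.6% and 89.8% against 7.57% and 5.18%, and the median totals were 601706 and 783785 counts. Spink3 ran from 203 to 1281 CPM over 12 embryos (median 559), Ttr from 34.9 to 761 (median 251) and Afp from 12.8 to 154.6 (median 37.4). Clic6 ran from 2.38 to 34.8 CPM, Fgb from 0 to 43.5 and Ang from 0 to 39.96, with Ang at 0 in 5 embryos and Fgb in 2. The log2 change from E5.5 was 7.89 ± 0.90 for Spink3 (adjusted p = 9.90e-08), 6.23 ± 1.02 for Ttr (1.00e-04), 6.26 ± 1.44 for Clic6 (0.00434) and 6.00 ± 1.31 for Afp (0.00226). Fgb (at least 681-fold, or 352-fold without embryo 3 of plate P1) and Ang (at least 274-fold) were called against E5.5 sums of 0, where only a rise was possible. Both could pass the low-count filter through their E6.5 sums. Without the cells titled E6.75, Ang did not pass it and was not tested. The 6 members called stand beside 3.58% of tested genes called higher, and the groups of Ttr, Afp, Spink3 and Clic6 did not overlap (0.795% of tested genes). As in the other steps between stages, collection and plates differ here too and cannot be told apart from the stage.

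Trf was the one member without a call over this step. Its E6.5 epiblast-like sums ran from 0.27 to 134.04 CPM (median 15.5), with a log2 change of 1.31 ± 0.88 (adjusted p = 0.399), and it was counted in 57 cells (35.4%). Its highest sum, 134.04 CPM in embryo 6 of plate P2, was 78.7% of the VE-like level of that embryo, and its lowest, in embryo 5 of the same plate, was 0.0731%. The highest sum came from 1 of the 5 cells of its embryo, and the 39.96 CPM of Ang from 1 of 3 cells.

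In the 7 embryos that held both classes, the epiblast-like level as a percentage of the VE-like level of the same embryo had a median of 10.01% for Ttr (1.42 to 14.2%), 5.75% for Spink3 (3.74 to 11.7%), 5.11% for Clic6 (1.398 to 8.42%), 3.93% for Afp (0.778 to 6.52%), 2.59% for Fgb (0 to 27.4%) and 2.32% for Ang (0 to 26.5%). For Trf the median was 11.4%. The 18 endoderm markers used for naming gave medians on both sides of these values. Above every member were Sparc at 35.3%, Lrp2 at 33.7%, Lamb1 at 26.8%, Emb at 22.85%, Krt18 at 15% and Col4a1 at 12.4%. Below every member were Gata4 at 2.14%, Cubn at 1.88% and Gata6 at 0.115%, and, over 5 embryos, Sox17 and Pdgfra. The other markers, with Amn at 7.20% and Hnf4a at 9.47% among them, lay within the range of the members' medians. At E4.5 the same percentage was at most 2.84% for Spink3 and 4.05% for Ttr and was 0 for Clic6 in 5 embryos. Ang, at a few CPM, reached 22.7% over 4 embryos. Trf, higher in epiblast-like cells, had a PrE-like count in 1 embryo only (4051%), and Afp ran from 0 to 1537% in 2 embryos. VE and epiblast were parted before dissociation at E5.5, and no such step is described for E6.5. Transcripts made in epiblast cells, free RNA and cells of mixed wells cannot be told apart by these counts.

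**Figure D4:**
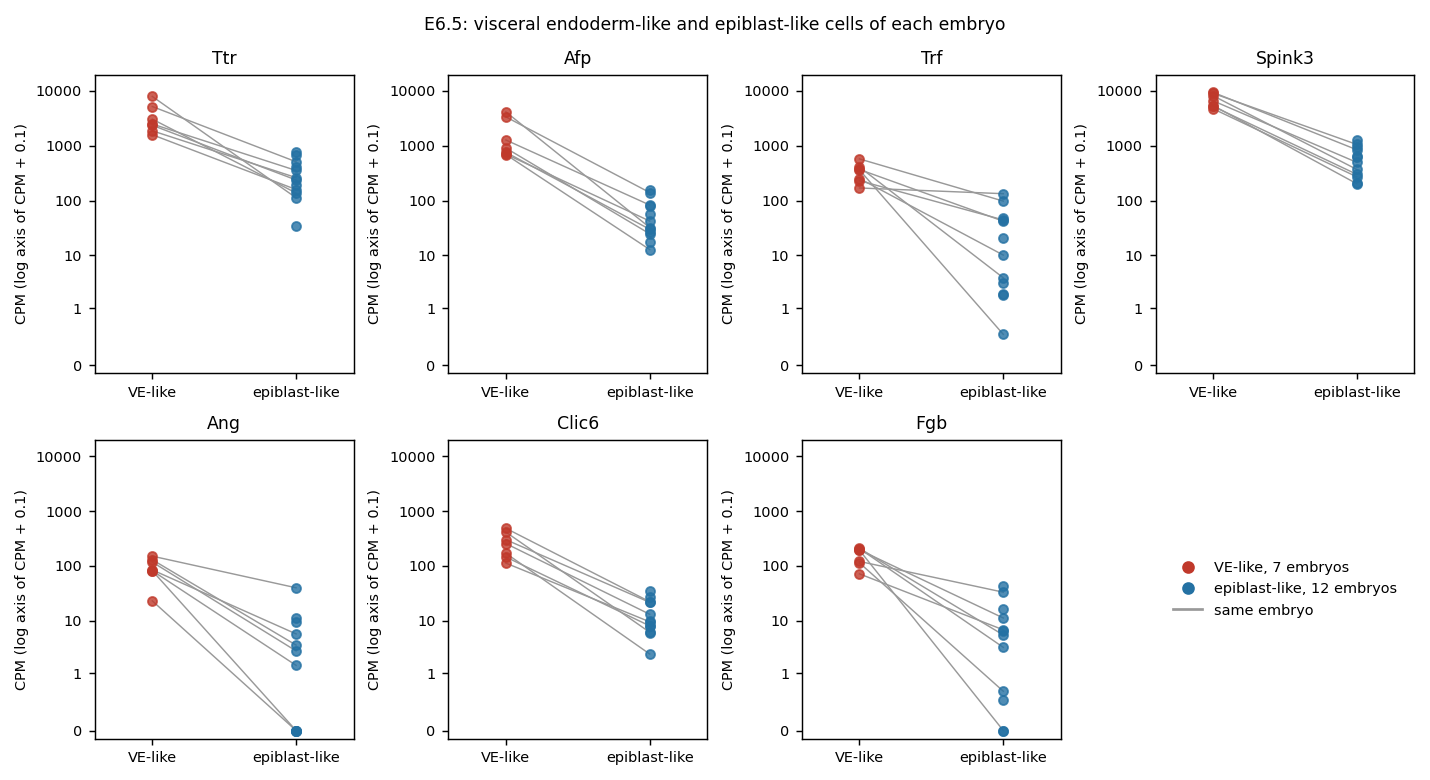
VE-like (red, 7 embryos) and epiblast-like (blue, 12 embryos) sums at E6.5 in CPM, on a log axis of CPM + 0.1, with lines joining classes of the same embryo. Every line falls, and the blue points of Trf, Ang and Fgb spread most.

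Embryos differed in the sum of these levels, though the members did not all rise and fall together. Among the epiblast-like sums at E6.5, embryo 6 of plate P2 had the highest Trf, at 134.04 CPM, and the lowest Afp, at 12.8 CPM. Summed over the 7 genes, epiblast-like cells held from 274 CPM in embryo 4 of plate P2 to 2326 CPM in embryo 3 of plate P1, with a median of 804. The 18 endoderm markers were at 1168 CPM in the former, their lowest sum, and at 1886 CPM in the latter. Their highest sum was 1974 CPM in E6.75 embryo 2, where the members stood at 1784 CPM. Embryo 5 of plate P2 went the other way, with the markers at 1838 CPM and the members at only 465 CPM. All 13 wells of embryo 4 and all 25 of embryo 3 were single. By cell, the summed level had a median of 709 CPM (quartiles 287 and 1504), and 60 cells were at 1000 CPM or more. No member was called between embryos with and without a plate name (0 of 7 by edgeR, beside 1.15% of 11114 tested genes, and none with an unadjusted p under 0.05). This does not show that they are alike, since 97 of 200 simulated 8-fold changes were recovered in this comparison. Clic6 differed by -1.28 ± 0.87 on the log2 scale. Trf, at 18.04 ± 19.4 against 42.04 ± 50.2 CPM (n = 4 and 8, log2 difference -1.34 ± 1.21), had the widest gap in log2 terms. The 20 streak-like cells, all of embryo 2 without a plate name, had counts of Ttr, Afp, Spink3 and Clic6 in every cell, with a summed Spink3 of 1067 CPM against 620 CPM in the 3 epiblast-like cells of that embryo, and Clic6 of 51.5 against 9.90 CPM.

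Across all 48 sums of the 8 classes, the genes most like each member by rank (Spearman, among 7824 genes with a mean of at least 10 CPM in E6.5 VE-like sums) were other members in 3 of the 21 places. Ttr was closest to Spink3 (0.94), followed by H19 (0.94) and Emb (0.93). Spink3 was closest to Ttr, Emb (0.93) and Apom (0.92), Clic6 to Pla2g12b (0.94), Emb (0.92) and Ctsh (0.92), and Fgb to Gm17509, Ttr and Gpx3 (each 0.90). Emb is among the endoderm markers that named the classes, so its places here describe the classes. Afp was closest to Car4 (0.91), AC153547.1 (0.90) and Apob (0.89), and Ang to its overlapping neighbour Rnase4 (0.87), Fxyd2 and Apom (each 0.83). Genes close to Trf included the imprinted Peg3 and Peg10, each at 0.75.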

How the data were processed

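Single cells were profiled by full-length cDNA amplification (Smart-seq2 within G&T-seq). The authors trimmed the reads, aligned them to GRCm38, kept primary alignments of adequate mapping quality and quantified genes in SeqMonk. The deposited table holds raw counts per gene and cell on chromosomes 1 to 19, after removal of low-quality and trophoblast cells. The labels give Trim Galore 0.4.3 and HISAT2 2.0.5, and the methods give other versions of both. Strand was not stated to be used.

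Cells were clustered by a consensus k-means procedure (8 clusters over all cells, 5 at E6.5) on log2(CPM + 1) without the members and the named lists, and 27 cells whose marker genes went against their cluster and 4 of an unnamed cluster were left out, a choice made after the clusters were seen. Counts were summed per class and embryo (at least 3 cells, 1 for Cer1). CPM is per 1000000 counts of the table. Sums were tested with edgeR 4.0.16 (quasi-likelihood, TMM, filterByExpr, Benjamini-Hochberg over all tested genes), and a gene was called where its adjusted p was no higher than 0.05 and its log2 change beyond 1, or beyond 2 at E4.5. Standard errors are the log2 change over the root of F. DESeq2 1.42.0, other scalings, filters, classes and omissions were alternatives. Bounds without 1 embryo at a time and lengths from the count table's gene starts were added after the data were seen. Exon lengths and positions came from GENCODE M21, where Spink3 is listed as Spink1. Intervals and floors cover counting error only. Embryos are biological replicates, but the 9 E3.5 cells without an embryo number were left out of sums. Doublets were left in, as the authors did, and single wells alone were an alternative.

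On simulated sums with 200 genes changed 8-fold, the step recovered 109 in the E4.5 class comparison (6 other calls), 101 in that of E6.5 (2 other calls) and 52 for Cer1 (1 other call). Sums of 1 embryo come from the same animal and so are paired. Their deviations from the class means correlated at 0.057 to 0.145 in 5 pairs at E4.5 and 0.040 to 0.276 in 7 pairs at E6.5, against medians of -0.025 and -0.008 between embryos.

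The members, gene lists and named genes were chosen with earlier results of these data known. Genes outside the 7 are named where they were among the 3 largest called rises or drops of the plasma or regulator list in the class comparisons and from E4.5 to E6.5, as partners (Rbp4, Fga, Fgg, Alb, Rnase4), as the divider Cer1, or as the 3 genes most like a member. A gene among those 3 is not reported here in 2 of these places.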

Additional observations from a re-analysis of the deposited data

Results flagged for a closer look

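An embryo stood apart from the others of its class in 8 of 25 pairs of gene and class tested by Dixon's criterion, where chance flags about 1 in 20. Several of these classes are at or near 0 in the other embryos. At E3.5 this was Spink3 at 0.470 CPM in embryo 6. In E4.5 PrE-like sums it was Trf at 1.91 CPM in embryo 4 and Clic6 at 104.2 CPM in embryo 5. Among E4.5 epiblast-like sums it was Ttr at 2.68 CPM in embryo 4 and Afp at 11.2 CPM in embryo 5. In E5.5 epiblast-like sums it was Ttr at 22.6 CPM in embryo 1, Trf at 47.4 CPM in embryo 3 and Clic6 at 1.47 CPM in embryo 2.

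The endoderm-over-epiblast difference changed between E4.5 and E6.5 by a test of the difference itself, by 10.15 on the log2 scale for Trf, 8.04 for Afp and -6.89 for Clic6. The Afp value rests on 1 cell and fell to 2.34 without E4.5 embryo 5 (adjusted p = 0.997), and Clic6 lost the call in 5 alternatives. What sets these apart was not tested.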

How the results depend on the processing

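No called change of a member turned sign under any alternative run, and 18 pairs of a called change and an alternative lost the threshold. Besides those given above, these were Trf from E3.5 to E4.5 PrE-like cells (DESeq2, at least 5 cells a sum) and Ang from E4.5 to E5.5 in the epiblast (DESeq2, single wells, at least 5 cells a sum, without embryo 1 or 3). Gains were fewer, at 11, namely Afp from E3.5 to PrE-like (3), Ttr from E3.5 to E4.5 epiblast-like (3) and in stage by class (2), and Ang, Spink3 (epiblast, clusters alone) and Spink3 in stage by class (single wells) with 1 each. Of the mean levels 4 moved by over 1 SD, to 0.175 CPM for Clic6 in E4.5 epiblast-like and 1015 CPM for Spink3 in E6.5 epiblast-like sums with classes from the marker lists, and to 23.6 CPM for Spink3 in E4.5 epiblast-like and 1.74 CPM for Trf in PrE-like sums with clusters alone.

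The 858 genes called between E6.5 VE-like and epiblast-like cells became 1366 with DESeq2, 1580 with no filter, 514 with classes from the marker lists, 539 with clusters alone, 515 with the embryo as a replicate block, 381 in plate-named embryos and 535 without E6.75 cells. The block changed no other count by over 1.5 times and no member's call. From E4.5 PrE-like to E6.5 VE-like cells the count became 1383 with at least 5 cells a sum. In the epiblast from E5.5 to E6.5, it became 2694 with no filter and 2154 with at least 5 cells. For Cer1, 1 became 3 with DESeq2, 2 with no filter, 13 with at least 2 cells a sum, 2 in plate-named embryos and 2 without E6.75 cells. For plate names in epiblast-like cells the count became 294 with DESeq2, 21 with single wells, 31 with at least 5 cells and 33 without E6.75 cells. For stage by class 362 became 667 with DESeq2, 236 with single wells, 1.7e+02 with classes from the marker lists, 213 with clusters alone and 208 with at least 5 cells. Without 1 embryo at a time, in groups of 5 or fewer, the counts ran from 829 to 936 (E4.5 classes), 1214 to 1283 (E3.5 to PrE-like), 644 to 709 (PrE-like to VE-like), 2313 to 2497 and 575 to 709 (epiblast, E3.5 to E4.5 and on to E5.5), 61 to 99 (plate names) and 1.7e+02 to 213 (stage by class).

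Log2 changes turned sign only where no call had been made. Afp in the epiblast from E4.5 to E5.5 went to 6.04 with single wells, and without 1 embryo it ran from -1.65 to 6.48, the latter without embryo 5. With against without Cer1, Ang went to 0.29 with clusters alone, 0.15 with at least 2 cells, 0.12 with Cer1 by 1 count and 0.17 with the replicate block. Clic6 went to 0.16, 0.25 and 0.12 with clusters alone, at least 2 cells and the block, and Trf to -0.074 with the plate name as a term. Between plate names, classes from the marker lists gave -0.58 for Spink3, 0.22 for Ang and 0.26 for Clic6. Afp went to -0.14 with clusters alone and -0.52 without E6.75 cells. Without 1 embryo Afp ran from -0.65 (without E6.75 embryo 2) to 0.31, Ttr from -0.56 to 0.051 (without E6.75 embryo 1) and Spink3 from -0.19 (without E6.75 embryo 2) to 0.30. Clusters alone, the plate-name settings and the stage-by-class fit were chosen after seeing the data, and the cause of these moves was not tested.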

Other observations

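Of the 49 cells in the E6.5 endoderm cluster, 8 had marker genes of another class and were left out. In them Spink3 was at 44.9 to 6872 CPM (median 743) and Ttr at 0 to 4153 CPM (median 98.8), while Ang and Fgb had no count in any of the 8 and Clic6 reached 6.81 CPM at most.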
